A study of Bos taurus with 40 samples.

Results

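Skeletal muscle of bulls and heifers was examined here for expression that differed with residual feed intake (RFI) in the same way in both sexes. RFI is the feed an animal eats above or below what its weight and growth predict, and the efficient animals are those of low RFI. Of the 40 samples of the series, 20 were muscle, and 16 of these were used, 9 of high and 7 of low RFI. The samples were selected on measured values, as 4 bull muscle samples (M12 of high RFI and M6, 2712 and M74 of low RFI) carried a liver expression profile and were left out. This left 4 high and 2 low RFI bulls and 5 high and 5 low RFI heifers. The estimated liver share, computed from up to 33 ids far more abundant in liver than in muscle, was −0.40 to 0.728% in the 16 samples, a negative value being an estimate below the muscle background. The nearest sample left out, M74, was at 44.1%, and the highest, M12, at 94.7%.

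All animals were purebred Simmental cattle housed at about 15 months of age, on concentrate fed to appetite with 3 kg of grass silage, and the muscle was biopsied from the longissimus. They were bred by mating dams of high RFI to sires of high RFI and dams of low RFI to sires of low RFI, with separate sires for each cohort. The calves were then ranked within each sex on their own RFI, and the parents of single animals were not analysed here. No agent or genetic modification is given for any group. The depth was 10.7 to 30.3 M reads per sample, with a median of 23.4 M reads. Of the 16 samples, heifer 2628 and bull 2641, both of high RFI, stood apart, at median distances of 1.31 and 0.945 on the log2 scale from the other samples, where the other 14 were at 0.419 to 0.840.

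Skeletal muscle at rest draws most of its energy from oxidative phosphorylation, in which respiratory chain complexes in the inner mitochondrial membrane pass electrons to oxygen and build the proton gradient for ATP synthesis. A few core subunits of these complexes are encoded by the mitochondrial genome and the rest by nuclear genes. Muscle biopsies also hold blood vessels, connective tissue and other cells besides the fibres, and in bulk RNA fewer cells of a type cannot be told apart from less of that RNA per cell.

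The files listed 6004 ids for bull muscle and 5547 for heifer muscle, and 5358 ids were listed for both. All 5358 passed the filter on low values (more than 1 CPM in at least 5 samples). They were named by identifier only, and 9 could be given a symbol. These comprise 5 mitochondrially encoded genes (*ND5*, *ND6*, *CYTB*, *COX1* and *COX3*), the actin gene *ACTA2*, the adhesion gene *LIMS2* and the endoplasmic reticulum genes *HSPA5* and *MANF*. The study had selected the first 5 on the heifers analysed here and the other 4 on bull liver, so the heifer values of the mitochondrial genes are not independent evidence. It called these 5 in heifer muscle at adjusted p < 0.1 with edgeR, over a larger set of genes. Heifers were tested here by limma on the 5358 ids, so the calls of the study and those below are not like for like. Markers of muscle fibres and of other cell types could not be looked up by name, apart from *ACTA2*.

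No gene passed the test for an RFI difference shared by both sexes. With limma on log2 scaled CPM, and sex as a block, 0 of the 5358 ids (0%) reached an adjusted p < 0.1, and the lowest adjusted p was 0.9997. At an unadjusted p under 0.05 there were 176 ids, with 56 (1.05% of those tested) in the higher and 120 (2.24%) in the lower direction in low RFI. This count and its split depended on the scaling, with 59 higher and 109 lower under the median of ratios and 10 higher and 592 lower on the deposited CPM. It was 99 without bull M67, 114 without heifer M70 and 258 without heifer 2704, the lowest 2 values and the highest when 1 sample was left out. On the reads recovered from the CPM, 0 ids passed in each of edgeR's quasi-likelihood test (159 at an unadjusted p under 0.05), edgeR's likelihood ratio test (154) and DESeq2 (204, lowest adjusted p = 0.299). DESeq2 gave no adjusted p for 19 ids, *ND5* among them, so these were not tested by that tool. The RFI difference within each sex was first taken from 1 limma fit of the 4 groups, with the spread pooled over all 16 samples. It gave 0 ids past the threshold in each sex, with 42 in bulls and 130 in heifers at an unadjusted p under 0.05. Separate limma fits of each sex alone also gave 0 ids, but here 113 in bulls and 88 in heifers were at that p. Which sex had more such ids thus depended on the fit. The RFI difference was also compared between the sexes as an interaction, where limma called 0 ids (0%), with 44 at an unadjusted p under 0.05 and a lowest adjusted p of 0.9999. The count tools called 0 ids for the interaction as well, with 55 (edgeR quasi-likelihood), 62 (edgeR likelihood ratio) and 78 (DESeq2) at an unadjusted p under 0.05.

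The precision of these samples limits what such a count can show. The median standard error of a log2 difference was 0.202 with the sexes together. With the spread pooled over all groups, it was 0.348 in bulls and 0.254 in heifers. For 4809 ids (89.8%) the 95% interval of the shared difference lay wholly within 1 on the log2 scale, that is, within a doubling or a halving. Only 13 of the 5358 ids had a shared difference over 1 in size. The median half-width of these intervals, which are not adjusted for the number of ids, was 0.425.

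The direction of the RFI difference was the same in bulls and heifers for 2880 ids (53.8%), 1342 of them higher in low RFI and 1538 lower. Across the ids, the bull and heifer differences had a Pearson's r of 0.117 and a Spearman's rho of 0.124, with n = 5358 ids that share libraries within each sex. With the spread pooled over all groups, 130 ids were at an unadjusted p under 0.05 in heifers. Of these, 88 (67.7%) had the same sign in bulls, and of the 42 in bulls, 25 (59.5%) had the same sign in heifers. Only 3 ids were at an unadjusted p under 0.05 in both sexes, 1 with the same sign and 2 with opposite signs. The count of ids with the same sign was 2111 without heifer 2628 and 3338 without heifer 2724, the lowest and the highest when 1 sample was left out, so it depended on single animals.

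**Figure D1:**
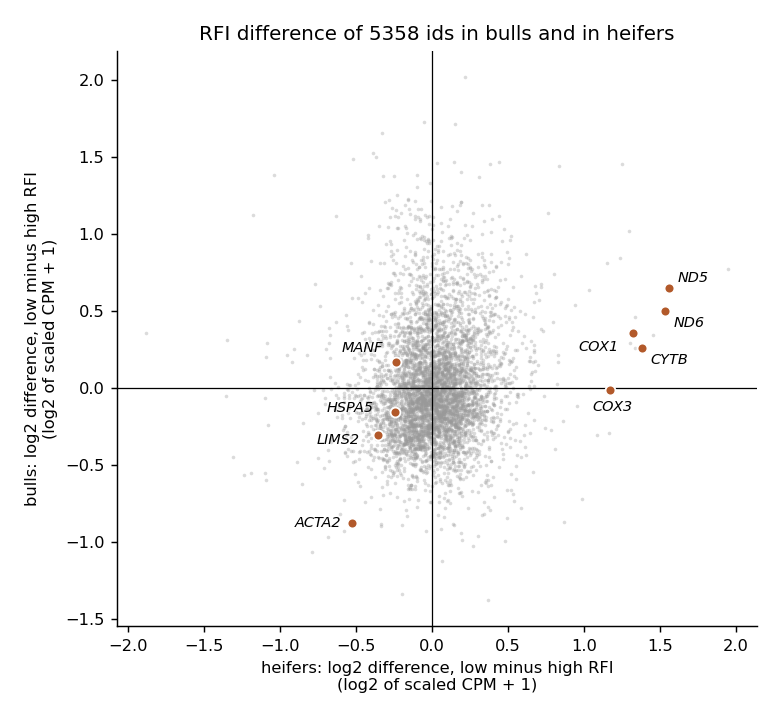
Log2 difference between low and high RFI in heifers (horizontal axis) and in bulls (vertical axis), on the log2 scale of scaled CPM + 1, for the 5358 ids (grey) and the 9 genes with a symbol (brown). The grey cloud shows little slope (Pearson's r 0.117), *ND5* and *ND6* lie at the upper right, *ACTA2* at the lower left and *COX3* on the line of no difference in bulls.

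*ND5*, which encodes a proton-pumping subunit of complex I, had the largest shared difference of the named genes. In high RFI bulls it was at 3175 CPM in 2666, 1850 CPM in M57, 3515 CPM in M65 and 11604 CPM in 2641, and in low RFI bulls at 6717 CPM in 2723 and 5635 CPM in M67. Both low RFI bulls thus lay above 3 of the 4 high RFI bulls and below the fourth, 2641. In high RFI heifers it was at 1338, 2003, 2092, 2507 and 2679 CPM, and in low RFI heifers at 2787, 3099, 4523, 4647 and, in M70, 18920 CPM. The heifer groups did not overlap for this gene, and the bull groups did. The shared log2 difference, low minus high RFI, was 1.24 (SE 0.451, 95% interval 0.291 to 2.19, limma adjusted p = 0.9997, unadjusted 0.0135), with 0.65 (SE 0.767) in bulls and 1.56 (SE 0.560) in heifers.

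*ND6*, another complex I subunit and the only protein gene on the opposite mitochondrial strand, was at 705, 999, 1106 and, in 2641, 3390 CPM in the high RFI bulls and at 1581 and 2039 CPM in the low RFI bulls. Its values were 421 to 891 CPM in high RFI heifers and 1048 to 5153 CPM in low RFI heifers. Again the heifer groups did not overlap and the bull groups were separated but for 2641. Over both sexes the log2 difference was 1.17 (SE 0.413, limma adjusted p = 0.9997, unadjusted 0.0113), with 0.50 (SE 0.692) in bulls and 1.53 (SE 0.506) in heifers. Whether reads were counted by strand is not given in the sources used here, so reads of *ND6* may include RNA of the other strand. *ND6* and *ND5* were the only genes with a symbol among the 10 ids of smallest p that were higher in low RFI in both sexes, and none of the 10 lower ids had one.

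*CYTB* encodes the cytochrome b of complex III. It was at 5202, 7947, 8029 and 28520 CPM in the high RFI bulls, the last being 2641, and at 10590 and 13077 CPM in the low RFI bulls. High RFI heifers had 3156 to 8485 CPM and low RFI heifers 6953 to 31217 CPM, and 4 of 5 in the latter group exceeded the highest of the former. *CYTB* had a shared log2 difference of 0.99 (SE 0.424, limma adjusted p = 0.9997), with 0.26 in bulls and 1.38 in heifers.

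*COX1*, the catalytic subunit of complex IV, was the most abundant of these genes in CPM. In the high RFI bulls it was at 19268, 25100, 33360 and, in 2641, 110236 CPM, and in the low RFI bulls at 45975 and 46997 CPM. In heifers it was at 14623 to 28576 CPM in high RFI and 26201 to 98060 CPM in low RFI, where 4 of 5 exceeded all values of the high RFI group. In the shared fit the log2 difference was 0.98 (SE 0.399, limma adjusted p = 0.9997), with 0.36 in bulls and 1.32 in heifers.

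*COX3*, a core subunit of the same complex, differed least. The high RFI bulls were at 7034, 8186, 13506 and, in 2641, 48846 CPM, and the low RFI bulls at 12488 and 15256 CPM, so here M65 as well as 2641 lay above a low RFI bull. The bull difference was −0.0086 (SE 0.706) and the heifer difference 1.17 (SE 0.516), so the signs were opposite here, although a fit of the bulls alone gave 0.035. Its shared difference was 0.76 (SE 0.426, 95% interval −0.14 to 1.66, limma adjusted p = 0.9997).

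**Figure D2:**
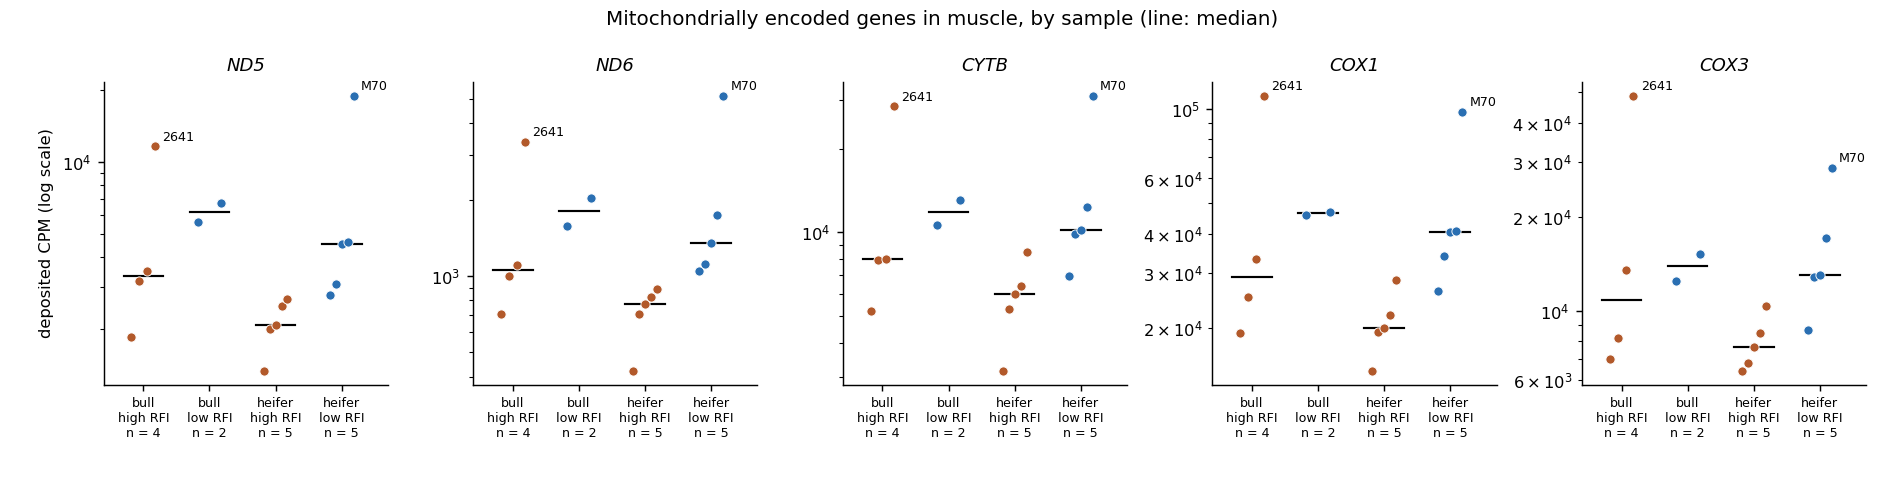
Deposited CPM (log scale) of 5 mitochondrially encoded genes in each muscle sample, by sex and RFI group, with a line at the group median. In all 5 panels high RFI bull 2641 and low RFI heifer M70 stand above the rest of their groups, and the medians of low RFI lie above those of high RFI in both sexes.

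The 5 genes are a list chosen by the study, and their fold changes were larger in heifers than in bulls in these values. The interaction did not show such a difference, as the bull difference minus the heifer difference was −0.90 (*ND5*) to −1.18 (*COX3*), with standard errors of 0.831 to 0.950 and unadjusted p-values of 0.196 to 0.356 (limma adjusted p = 0.9999 for each). Exact permutation tests (2-sided) over the 3780 assignments of RFI within sex were run for 13 genes and ids and not adjusted. In these tests p was 0.0196 for *ND6*, 0.0212 for *ND5*, 0.0437 for *COX1*, 0.0563 for *CYTB* and 0.136 for *COX3*. These tests include the heifers on which the study chose the 5 genes. Small p-values were thus favoured by that choice and are no independent evidence. Across these genes, 4 of 5 had the same sign in both sexes, beside 53.8% of all ids, and all 5 did with the bulls fitted alone. The 2 shares are not comparable, as the heifer sign was fixed when the study chose these genes on the same heifers. The 5 genes also share libraries, so their signs in bulls are not independent. With 4-digit tags the shared log2 difference was 0.49 (*COX3*) to 0.79 (*ND6*), and with short tags 1.11 (*COX3*) to 1.83 (*ND5*). High RFI bull 2641, with 20.3% of reads on these genes, has a 4-digit tag. Low RFI heifer M70, with 18.2%, has a short one. The split by tag thus also parts these 2 libraries, and the tag style cannot be told apart from them here.

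Together the 5 genes took 3.41 to 5.94% of all reads in 3 high RFI bulls and 20.3% in 2641, against 7.84 and 8.20% in the low RFI bulls. They took 2.72 to 5.08% in the high RFI heifers, 4.60 to 7.58% in 4 low RFI heifers and 18.2% in M70. The groups overlapped in both sexes in this share, through 2641 in bulls and M62 (4.60%) in heifers. Since 2641 is a high RFI bull and M70 a low RFI heifer, they moved the shared difference in opposite directions. Without 2641 the difference was 1.48 for *ND5*, 1.39 for *ND6*, 1.23 for *CYTB*, 1.22 for *COX1* and 1.03 for *COX3*, with a limma adjusted p of at least 0.959 for each. Without M70 it was 0.89 for *ND5*, 0.86 for *ND6*, 0.71 for *CYTB*, 0.74 for *COX1* and 0.54 for *COX3*.

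The ratio of 1 of these genes to another within a library does not depend on any scaling. The ratio of *COX3* to *ND5* reads was 4.21 in 2641 and 1.52 in M70, the libraries with the largest mitochondrial shares, and M70 was the lowest of the 16. It was 2.58 to 4.21 in high RFI bulls, 1.86 and 2.71 in low RFI bulls, 2.56 to 5.75 in high RFI heifers and 1.52 to 4.68 in low RFI heifers. The groups overlapped in both sexes. For *ND6* to *ND5* the ratio was 0.235 to 0.399 over all 16 samples. These ratios were chosen after the values had been seen and were not tested.

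*ACTA2* encodes the actin of smooth muscle, found in vessel walls and in pericytes. It was at 71.4, 73.9, 91.0 and 118 CPM in the high RFI bulls and at 44.5 and 48.7 CPM in the low RFI bulls. In the high RFI heifers it was at 79.6, 85.2, 86.2, 137 and, in 2628, 164 CPM, and in the low RFI heifers at 40.6, 62.8, 64.6 and 71.7 CPM, with M70 between 71.7 CPM and the lowest high RFI heifer. On the deposited CPM all low RFI animals lay below every high RFI animal of their sex. After scaling the bull groups were still apart, but only 2 of the 5 low RFI heifers lay below every high RFI heifer. The shared log2 difference of the scaled values was −0.65 (SE 0.243, 95% interval −1.16 to −0.14, limma adjusted p = 0.9997, unadjusted 0.0162), with −0.88 (SE 0.420) in bulls and −0.53 (SE 0.307) in heifers. Its exact permutation p was 0.0246 on the scaled and 0.000265 on the deposited values. The latter is the lowest p that this test can give. On the deposited CPM, 32 ids (0.597%) were without overlap in this direction in both sexes, and the median of all differences was −0.16. The difference was −0.60 among 4-digit tags and −0.71 among short tags. It was −0.75 to −0.53 when 1 sample was left out.

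*LIMS2*, which encodes an adaptor at cell-matrix adhesions, was at 21.5 to 43.1 CPM in the high RFI bulls and 21.4 and 25.3 CPM in the low RFI bulls. High RFI heifers had 26.3 to 34.4 CPM in 4 samples and 83.9 CPM in 2628, and low RFI heifers had 18.1 to 28.6 CPM. The groups overlapped in both sexes. For *LIMS2* the shared difference was −0.34 (SE 0.218, limma adjusted p = 0.9997), and it was −0.14 without heifer 2628, which was also the highest sample in *ACTA2*.

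*HSPA5*, the main chaperone of the endoplasmic reticulum, was at 36.0 to 59.6 CPM in the high RFI bulls and 41.9 and 44.0 CPM in the low RFI bulls. High RFI heifers had 46.0 to 87.6 CPM and low RFI heifers 40.7 to 53.2 CPM, with overlap in both sexes. The shared log2 difference was −0.21 (SE 0.117, limma adjusted p = 0.9997, unadjusted 0.0841), with an exact permutation p of 0.0212. *MANF*, a secreted stress factor of the same compartment, was at 5.13 to 11.9 CPM in high RFI bulls, 9.79 and 10.0 CPM in low RFI bulls, 8.33 to 12.8 CPM in high RFI heifers and 3.76 to 12.2 CPM in low RFI heifers. Its difference was 0.17 in bulls and −0.24 in heifers, and −0.10 (SE 0.198) in the shared fit, with an exact permutation p of 0.633. The lists of endoplasmic reticulum chaperones and of smooth muscle markers thus rest on 2 genes and 1 gene, and 0 of these passed the test.

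**Figure D3:**
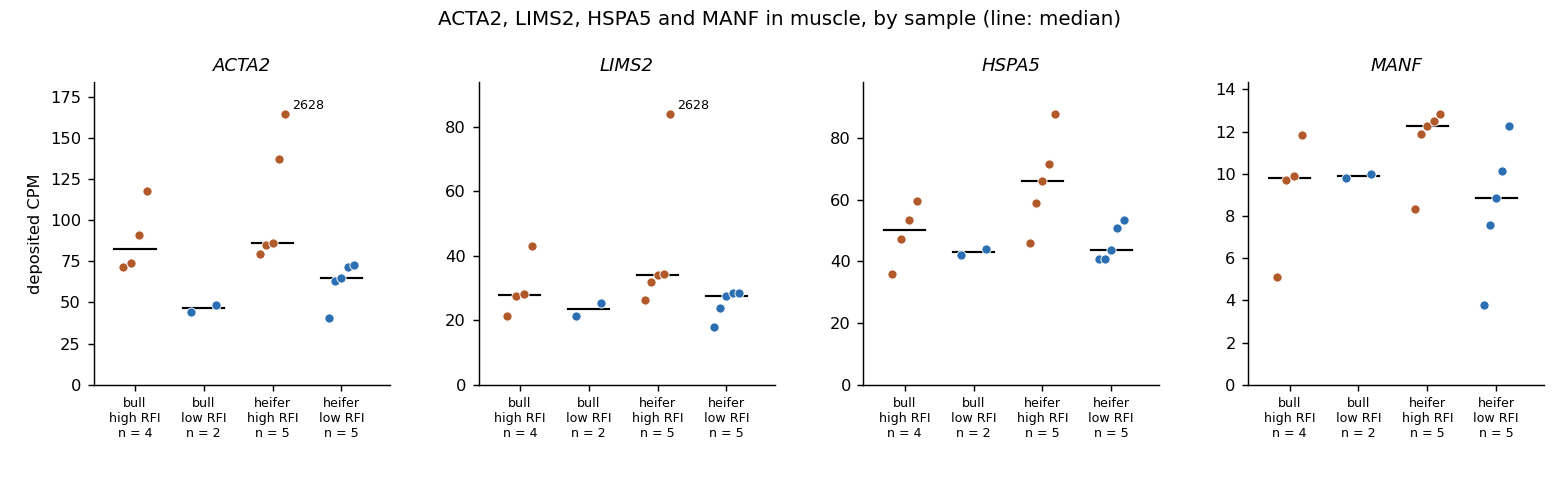
Deposited CPM of *ACTA2*, *LIMS2*, *HSPA5* and *MANF* in each muscle sample, by sex and RFI group, with a line at the group median and axes from 0. For *ACTA2* the low RFI points lie below all high RFI points in each sex (44.5 and 48.7 against 71.4 to 118 CPM in bulls), although the heifer groups overlap after scaling, and for the other 3 genes the groups overlap.

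The deposited and the scaled values also differed in how many ids separated the groups. The median log2 difference of all ids was −0.16 in the deposited CPM and 0.00 after scaling, and the deposited differences are read relative to that shift. On the deposited CPM, 32 ids (0.597%) lay lower in every low RFI animal than in every high RFI animal of the same sex, in bulls and in heifers, and 0 (0%) lay higher. After scaling, 1 id (0.0187%) lay lower and 0 (0%) higher. In bulls alone, of the 5358 ids, 589 did not overlap in the lower and 66 in the higher direction on the deposited CPM. After scaling these were 416 and 283. In heifers, of the same 5358 ids, the counts were 97 and 2 on the deposited CPM, and 9 and 10 after scaling. With 4 high and 2 low RFI bulls, the groups of an id separate by chance far more easily than in heifers. The bull counts are thus no evidence of an RFI difference. These counts of ids without overlap were added after the values had been seen.

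Of the ids without a symbol, 4 are given with their values, chosen after the values had been seen, and their differences are a description. ENSBTAG00000019044 was the id without overlap in both sexes after scaling. It was at 10.3 to 10.5 CPM in the high RFI bulls, 6.48 and 8.69 CPM in the low RFI bulls, 13.2 to 22.2 CPM in the high RFI heifers and 4.99 to 11.8 CPM in the low RFI heifers, and its shared log2 difference was −0.52 (SE 0.1696). ENSBTAG00000007213 had the smallest p of all ids in the shared fit. It was the 1 id with an unadjusted p under 0.05 and the same sign in both sexes in limma's fit of the 4 groups. Its level was 13.8 to 17.7 CPM in high and 8.14 and 8.60 CPM in low RFI bulls, and 26.3 to 50.6 CPM in high and 12.8 to 25.5 CPM in low RFI heifers. Its shared difference was −0.68 (SE 0.167). After scaling, 3 of the 5 low RFI heifers lay below every high RFI heifer in this id. The leading higher ids were ENSBTAG00000003604, with a shared difference of 0.50 (SE 0.147), and ENSBTAG00000002014, with 0.40 (SE 0.122). For the latter, the heifer groups did not overlap after scaling, with low RFI above, whereas the bull groups overlapped.

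**Figure D4:**
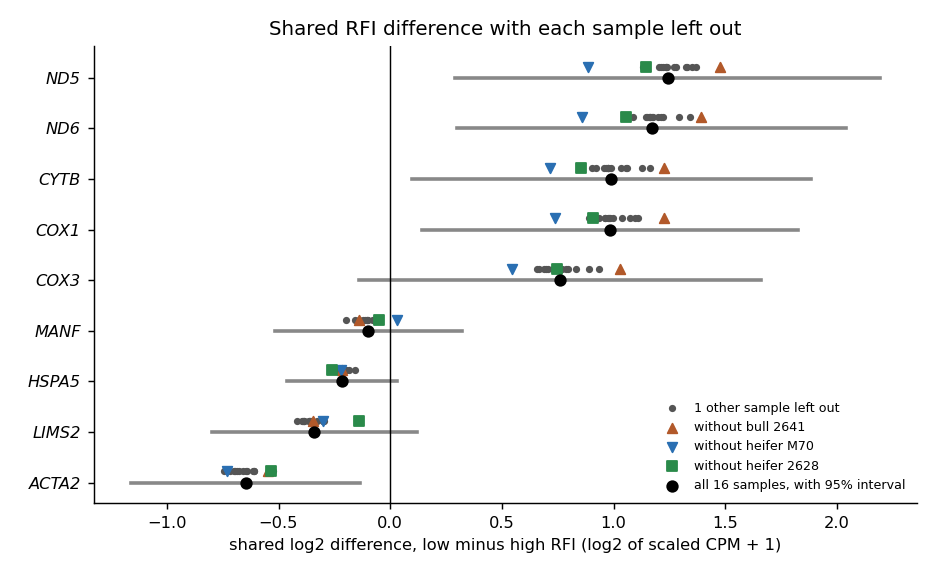
Shared log2 difference (low minus high RFI, log2 of scaled CPM + 1) of the 9 named genes in all 16 samples (black, with the 95% interval as a grey bar) and with each sample left out in turn (points above the bar). For the mitochondrial genes the lowest value is the one without heifer M70 and the highest the one without bull 2641 (0.89 and 1.48 for *ND5*), and for *LIMS2* the value nearest 0 is the one without heifer 2628 (−0.14).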

How the data were processed

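Muscle mRNA of 20 animals had been sequenced as single-end libraries. Per the study's methods the authors aligned reads to UMD3.1 with STAR 2.5.1 and counted them per gene with HTSeq. The authors deposited CPM per gene for a part of the genes, without replicates pooled. The deposited bull muscle files carry 1359 further rows that repeat the liver values of bull 2723, so their columns were handled as a signal, and these rows were dropped. No step of the conversion to CPM is given in the sources used here. All values were whole multiples of the CPM of 1 read, to within 0.000257 reads (100% within 0.1 read), from which reads and depth were recovered. A general check for such steps accepted only 3 of the samples left out, so for the 16 samples the recovery rests on this estimate of the step.

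CPM were scaled by trimmed means of M values (edgeR 4.0.16), 1 CPM was added, and log2 values entered a limma fit (limma 3.58.1, R 4.3.3, trended variance, RFI with sex as a block, Benjamini-Hochberg adjusted p < 0.1). Log2 differences are low minus high RFI on this log2(CPM + 1) scale, where the change of low genes appears smaller. edgeR and DESeq2 1.42.0 on recovered reads were alternatives. Single genes were tested by exact permutation within sex in Python 3.11.15. Scripts were tested on simulated data.

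The members and lists were chosen with earlier results of these data known. Named genes were to be those that passed, the leading 10 in each direction, the mitochondrial genes, up to 3 of each list and the leading 10 of the interaction, where they carried a symbol. Symbols came from the study's tables for 16 ids, 9 of them listed in both groups of files, and 0 ids matched the reference table, so only 3 of 30 lists held a listed gene. Each animal tag was counted as 1 animal, and no batch is given. The style of the tags (4-digit or short) was read from the animal names and is not stated to be a batch. Intervals cover the spread between these samples.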

Additional observations from a re-analysis of the deposited data

Results flagged for a closer look

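In 48 sets of samples (a gene, id or library measure in a group of 4 or 5 animals), 9 held a sample far from the others by Dixon's criterion, which chance meets in about 1 of 20 sets. The sets are not independent, as they share libraries. Low RFI heifer M70 was highest in *ND5*, at 14.6 on the log2 scale of scaled CPM against 12.3 for the next sample, and in the share of reads on the 5 mitochondrial genes, at 18.2% against 7.58%. High RFI bull 2641 was highest in that share among its group, at 20.3% against 5.94%, and in ENSBTAG00000019044, at 3.86 against 3.396 on the log2 scale. The latter holds for the scaled values, where the scaling factor of 2641 was 0.774. On the deposited CPM of this id, 2641 was at 10.5 CPM beside 10.3 to 10.4 CPM in the other high RFI bulls. High RFI heifer 2628 was lowest in *ND6* (8.76 against 9.38), highest in *LIMS2* (6.45 against 5.09) and farthest from the other samples (1.31 against 0.653), all on the log2 scale. Low RFI heifer M62 was lowest in ENSBTAG00000002014, at 6.01 against 6.20, and low RFI heifer 2632 was lowest in ENSBTAG00000019044, at 2.86 against 3.44. The part of these samples in the RFI differences is given only by the values without them.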

How the results depend on the processing

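The count of 0 ids with a shared RFI difference was found under all 37 alternatives, with the lowest adjusted p at 0.160 (sample weights). The interaction gave 0 under all 32 of its alternatives. Both sets hold settings that could not change a count of 0. These are the stricter adjusted p < 0.05 and the fit without a filter, as all 5358 ids passed the filter. The 37 also include the fits of each sex alone, which do not test a shared difference. Without bull 2641 and heifer 2628, chosen after seeing the data, 244 ids had an unadjusted p under 0.05. With all 20 muscle samples the count at that p was 103, and the median residual SD was 0.552 against 0.402 in the 16. Of 463 values of single genes and ids, 458 kept their direction. *MANF* turned to 0.031 with sample weights, 0.189 with all 20 samples, 0.206 in bulls alone and, over the samples left out singly, ranged from −0.199 (without heifer 2632) to 0.0305 (without heifer M70), and *HSPA5* to 0.378 with all 20 samples. Ids without overlap in both sexes numbered 1 lower and 0 higher. They became 32 lower with library size only, 0 lower with all 20 samples and 5 lower and 4 higher without 2641 and 2628. Leaving out 1 sample gave 1 to 9 lower and 0 to 3 higher, with 9 without heifer M62. No paired analysis was possible, as the high and low RFI groups, and the bulls and heifers, were different animals.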

Other observations

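The ids were also grouped by how their level in heifer muscle compared with bull liver, with limits set after the files had been seen. The 27 ids over 32 times higher in muscle had a median shared log2 difference of 0.15, with −0.10 in bulls and 0.31 in heifers. Among these, 44.4% had the same sign in both sexes, and at an unadjusted p under 0.05 there were 2 higher and 0 lower ids (low against high RFI). The 329 ids over 4 times higher in liver had a median of −0.06, with 1 id higher and 11 lower at that p. The 914 ids not listed for bull liver had a median of 0.04, with 22 higher and 9 lower. The other 4088 ids had a median of 0.00, with 31 higher and 100 lower, beside 56 higher and 120 lower among all 5358.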
